A study of Mus musculus with 4 samples.

Results

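The MAF and NRF basic leucine zipper factors were described as 9 genes across 4 RNA sequencing libraries of mouse T helper 17 (Th17) cells, among 50600 genes listed in the deposited tables. The genes were taken by symbol: the large MAF gene Maf, the small MAF genes Maff, Mafg and Mafk, the NRF genes Nfe2l1, Nfe2l2 and Nfe2l3, the adaptor gene Keap1 and the repressor gene Bach1. All 9 symbols matched exactly 1 gene each. Keap1 itself encodes no basic leucine zipper protein and was included as the regulator of NRF2.

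Per the labels, all 4 libraries hold RNA of primary Th17 cells, the IL-17-producing lineage of helper T cells, from mice of strain C57BL/6NJ. A protocol for differentiating CD4 T cells is linked, the name of the counting output carries 48 hours, sex and age are not given, and 1 donor label is shared by all 4. The samples, numbered as biological replicates 1 to 4, form a single group with no treated or control arm, so genes were compared with each other within libraries, and libraries with each other. No label says that they came from separate animals or cultures, so any p-value reflects variation among 4 samples that may be partly technical.

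Factors of this family bind DNA as dimers. Small MAF proteins have a basic leucine zipper but no activation domain, and they pair with the cap'n'collar (CNC) proteins NRF1, NRF2 and NRF3 and with BACH1 on antioxidant response elements. KEAP1 holds NRF2 for destruction until oxidants or electrophiles disable it, and BACH1 represses many of the same sites until haem removes it. The large MAF protein, c-MAF, carries its own activation domain and in T helper cells is known as an activator of Il10 and Il21.

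Library totals ranged from 28555677 to 58104663 fragment counts, and library 3 was the deepest. The Th17 markers chosen for an identity check were all 8 at 1 TPM (counts scaled by exon length and then to a common library total) or more in every library. None of 8 macrophage, 6 B cell or 9 erythroid and platelet markers reached that level in every library, and their summed levels were 1.08 to 1.55, 0.298 to 0.471 and 0.475 to 0.716 TPM. Of these markers, Lyz2, C1qa, Ms4a1, Hbb-bs and Pf4 had 0 counts in all 4 libraries. Fragments that map to several places were not counted, and sequence shared with other genes was not checked for them. Their counts of 0 therefore do not alone show that the RNA was absent. The highest of the 3 lists had counts in every library: Csf1r at a mean of 0.58 TPM, Blk at 0.236 and Itga2b at 0.461. Csf1r fell from 0.839 TPM in replicate 1 to 0.285 in replicate 4. It was called variable by the Poisson test described below, a call made for 1.74% of genes tested, but not by the negative binomial test. Sex-linked genes divide the libraries: Xist read 132, 131, 0.329 and 0.496 TPM over replicates 1 to 4, and Ddx3y 0.428, 0.347, 58.9 and 57.3 TPM. These values go against a source in 1 animal, although 1 donor label is shared. Whether this division had a part in any result below was not tested.

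Of the 9 genes, 8 were detected, meaning at 1 TPM or more in every library, against 47.0% of all protein-coding genes. Their order by mean level was Maf, Nfe2l1, Mafg, Mafk, Keap1, Nfe2l2, Maff and Bach1, and Nfe2l3 was at background. The mean levels of 6 of the 9 lay above 31.3 TPM, the median of the detected protein-coding genes. The 9 genes and the lists below were chosen with earlier results of these data known. Shares detected above 47.0%, here and below, may follow in part from that choice. In these bulk libraries, fewer cells expressing a gene and less of its RNA per cell cannot be told apart.

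**Figure D1:**
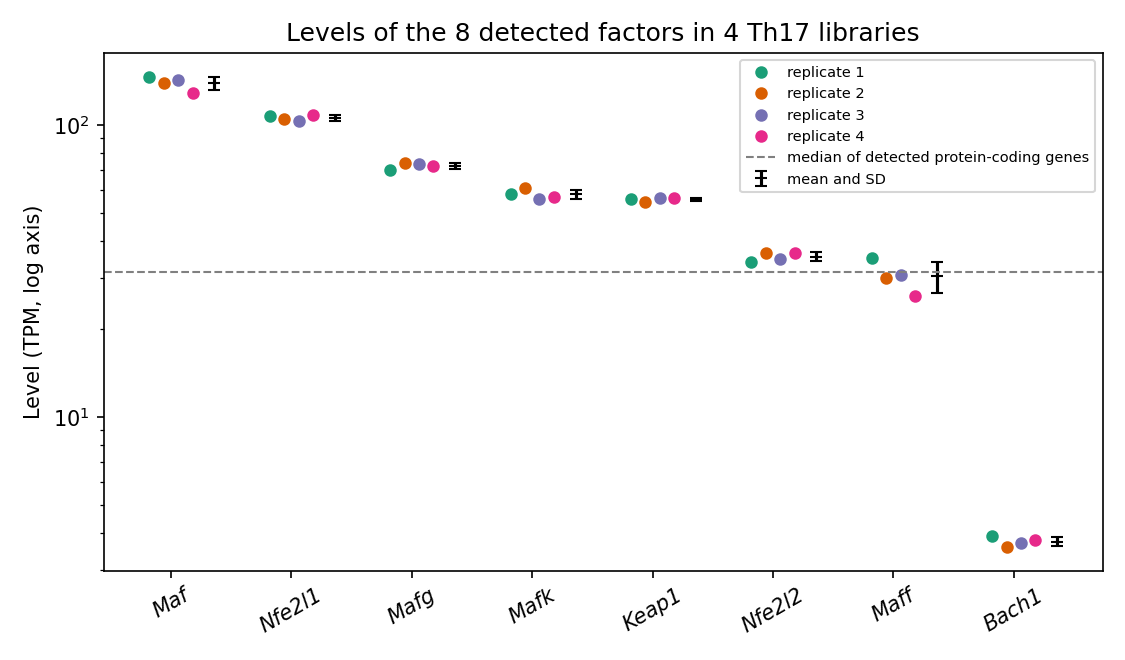
Level in TPM (log axis) of the 8 detected factors, with 1 point for each of the 4 libraries and the mean with its SD beside them; the dashed line is the median of detected protein-coding genes at 31.3 TPM. Maf is highest in every library, Bach1 lies far below the other 7, and the points of Mafk and Keap1 and those of Nfe2l2 and Maff overlap.

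Maf, the large MAF gene, was the highest of the 9 genes in all 4 libraries. Its levels were 146, 139.6, 143 and 129 TPM in replicates 1 to 4, from 10239, 12745, 20563 and 13705 counts. Replicate 4 was the lowest and the other 3 lay close together, giving a mean of 139 ± 7.47 TPM (SD, n = 4). This placed Maf at rank 1428 of 21764 protein-coding genes, the 93.4th percentile. Maf (ENSMUSG00000055435.6) (mm10 chromosome 8, 115682942 to 115707794, minus strand, 8241 exonic bases) made up 27.8% ± 1.04 (SD, n = 4) of the summed TPM of the 9 genes. The antisense gene Gm15655 overlaps 440 exonic bases of Maf and had 2, 3, 2 and 15 counts. Since counting used strand, these were kept apart.

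The genes with levels most like those of Maf, by the root mean square difference in log2(TPM + 0.1) over the 4 libraries, were Ier5 (0.0271), Plekha2 (0.0274) and Plod2 (0.0331). Their means were 139.7, 137 and 138 TPM, and each was lowest in replicate 4, at 131, 128 and 128 TPM, where Maf was lowest too. They were picked for this likeness over the same 4 libraries, so the shared low replicate follows largely from the choice.

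Other large MAF genes were near 0. Mafa, a factor of pancreatic beta cells, was at 0.137 ± 0.0557 TPM (SD, n = 4), and Nrl, a factor of rod photoreceptors, at 0.0114 ± 0.0228 with counts in replicate 3 alone. Neither reached 1 TPM in any library.

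All 3 small MAF genes were detected, with Mafg the highest. Its levels were 70.3, 74.3, 73.3 and 72.1 TPM in replicates 1 to 4, a mean of 72.5 ± 1.72 (SD, n = 4). Mafk followed at 57.9, 60.9, 55.8 and 56.8 TPM, a mean of 57.8 ± 2.22. The ranges of these 2 genes did not overlap. Maff stood lowest of the 3 and varied most, at 34.9, 29.99, 30.6 and 25.9 TPM, with a mean of 30.4 ± 3.71. Replicate 1 was its highest library and replicate 4 its lowest.

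Mafg supplied 45.1% ± 1.52 (SD, n = 4) of the summed small MAF level, Mafk 36% ± 0.934 and Maff 18.9% ± 1.97. The share of Maff was 21.4, 18.2, 19.2 and 16.7% in replicates 1 to 4. The summed small MAF level came to 161 ± 4.56 TPM. The sum and shares were chosen after the values were seen, are scaled by exonic length and describe RNA, not protein.

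Mafg (ENSMUSG00000051510.13, chromosome 11, 120625117 to 120633600, minus strand) shares 124 of its 5613 exonic bases with Sirt7 on the same strand, and fragments that overlap both were left uncounted. Mafk (ENSMUSG00000018143.10) lies on chromosome 5 from 139791513 to 139802653 and Maff (ENSMUSG00000042622.13) on chromosome 15 from 79347541 to 79359072, both on the plus strand. No 100-base window of the longest Maff or Mafk transcript occurred in a transcript of another gene, so the small MAF genes were counted apart from each other. For Mafg the share of such windows was 0.518%, all with Sirt7.

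The antioxidant response element is the site that NRF2 and small MAF dimers bind, and its core was searched as TGACNNNGC, where N is any base, on both strands of promoter windows of 250 bases before to 50 bases after each RefSeq start site (GRCm38.p6). Of the 9 genes, 8 had at least 1 window, 14 windows in all; Maf had no entry. A match was found for 4 of 8 genes, all 3 small MAF genes and Nfe2l2, while 14% of 27025 genes and 12.4% of 32851 windows held one. Each site is shown within 30 bases, 5′ to 3′ on the strand of the gene, with the matched letters in capitals, to let the core and its flanks be compared.

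Maff, chr15:79346499-79346528: gggcgtctcaTGACTCTGCcactggaaaga

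Mafg, chr11:120633750-120633779: ctctgcaggaGCACGGTCAacccggcgagc

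Mafk, chr5:139791513-139791542: gatcccggaaGCGGTGTCAgtactggggag

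Nfe2l2, chr2:75704884-75704913: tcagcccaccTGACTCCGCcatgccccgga

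The matches of Maff and Nfe2l2 read forward on the gene's strand and those of Mafg and Mafk read in reverse. Counting the start site as base 0, they begin at base -112 in Maff, -222 in Mafg, -13 in Mafk and -240 in Nfe2l2. The Maff window is that of the most upstream of its 3 RefSeq starts, which lies before the gene model used for counting. Genes with several windows had more chances of a match, and a match of these letters is not a bound site. The windows with a match were 69.7% G or C in Mafg, 68.3% in Mafk, 68.7% in Nfe2l2 and 50.3% in Maff. The median over all windows was 52.7%. Whether base composition had a part in the share of genes with a match was not tested. The full palindromic MAF recognition elements, T-MARE and C-MARE, were in no window of the 8 genes, and in 1 and 0 of all 32851 windows.

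Among the NRF genes, Nfe2l1 stood highest. It encodes NRF1, which is made at the endoplasmic reticulum and, once released and cut, activates proteasome genes. Nfe2l1 was at 107, 105, 103 and 108 TPM in replicates 1 to 4, a mean of 106 ± 2.24 (SD, n = 4), at the 91.1st percentile of protein-coding genes. Nfe2l2, which encodes NRF2, the inducible activator of antioxidant genes, was at 34, 36.4, 34.7 and 36.5 TPM, a mean of 35.4 ± 1.25. Nfe2l1 exceeded Nfe2l2 in all 4 libraries, by 2.99 ± 0.114 times. The ranges of both genes were narrow, and no library stood apart in either.

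Nfe2l3, which encodes NRF3, gave 0, 0, 0 and 1 counts. A count of 0 allows up to 3 counts, which is 0.118 TPM in replicate 1, 0.0911 in replicate 2 and 0.0577 in replicate 3. The pooled count of 1 has an exact Poisson 95% interval of 0.0253 to 5.57 counts, and its upper end corresponds to 0.0375 TPM. These limits cover counting error only. The CNC gene Nfe2, a factor of erythroid cells and megakaryocytes, was also under 1 TPM in every library, at 0.0623 ± 0.0504 TPM (SD, n = 4).

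Nfe2l1 (ENSMUSG00000038615.17) lies on chromosome 11 from 96817414 to 96829968 and Nfe2l2 (ENSMUSG00000015839.6) on chromosome 2 from 75675513 to 75704641, both on the minus strand. Nfe2l3 (ENSMUSG00000029832.16) lies on the plus strand of chromosome 6 from 51432670 to 51458768. No 100-base window of their longest transcripts was shared with another gene. With the length of the longest transcript in place of all exonic bases, Nfe2l2 came to 43 TPM and Nfe2l1 to 97.9, and their order held.

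Keap1, the adaptor that brings NRF2 to the CUL3 ubiquitin ligase, was at 55.6, 54.6, 56.1 and 56.2 TPM in replicates 1 to 4. Its mean of 55.6 ± 0.743 (SD, n = 4) had the smallest relative spread of the 8 detected genes, a coefficient of variation of 1.34%. The level of Keap1 was 1.57 ± 0.0647 times that of Nfe2l2, and above it in all 4 libraries. The SD covers the libraries only, and the size of the ratio depended on the length used, as given below. Keap1 (ENSMUSG00000003308.15, chromosome 9, 21229730 to 21239361, minus strand) is overlapped by the antisense gene Gm16754, which had 4, 14, 25 and 27 counts against 2227 to 4606 of Keap1.

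Bach1 was low and steady, at 3.91, 3.58, 3.70 and 3.78 TPM, a mean of 3.74 ± 0.137 (SD, n = 4) from 1153 pooled counts. BACH1 is the haem-sensing repressor that competes with NRF2. Nfe2l2 exceeded Bach1 by 9.48 ± 0.613 times. The related repressor gene Bach2, a factor of naive and memory lymphocytes, was at 190, 178, 188 and 179 TPM, or 49.1 ± 1.53 times the level of Bach1, with no overlap between them. Bach1 (ENSMUSG00000025612.5) lies on the plus strand of chromosome 16 from 87698945 to 87733346.

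The order of the 9 genes was compared pair by pair as the log2 ratio of TPM + 0.1 within each library. Of 36 pairs, 34 had the same order in all 4 libraries. Each of these 34 had an exact two-sided sign-flip p of 0.12 when rounded, the smallest that 4 libraries allow, and 0.13 after Benjamini-Hochberg adjustment over the 36 pairs, so no pair could pass a threshold of 0.05. The exceptions were neighbours in the order, and only in these 2 pairs did the ranges overlap.

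Mafk and Keap1 differed by a log2 ratio of 0.06 ± 0.07 (SD, n = 4; exact sign-flip p = 0.25), with Mafk higher in 3 of 4 libraries. Nfe2l2 and Maff differed by 0.23 ± 0.22 (exact sign-flip p = 0.25), with Nfe2l2 higher in 3 of 4 and Maff higher in replicate 1. On this scale neither pair was separated beyond the spread of its libraries. For Nfe2l2 and Maff that depended on the length used: the log2 ratio was 0.73 with the longest transcript and 1.07 in CPM (counts scaled to library size only). The pairs in 1 order numbered 35 and 36 of 36 on those scales. Of the remaining neighbours, Maf lay above Nfe2l1 by 0.39 ± 0.10, Nfe2l1 above Mafg by 0.54 ± 0.06, Mafg above Mafk by 0.33 ± 0.05 and Keap1 above Nfe2l2 by 0.65 ± 0.06. Maff lay above Bach1 by 2.98 ± 0.16, the widest step between detected neighbours. The size of most of these steps also depended on the length used. With the longest transcript and in CPM, Mafg lay above Mafk by 0.18 and 0.85, and Keap1 above Nfe2l2 by 0.41 and 0.96. Maf lay above Nfe2l1 by 0.54 and 0.99, Nfe2l1 above Mafg by 0.58 and 0.50, and Maff above Bach1 by 3.01 and 1.46. In CPM, Keap1 (78.4) stood above the shorter Mafk (67.7).

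Differences between libraries were small. Of the 9 genes, 8 passed the filter on low counts, against 51.2% of protein-coding genes, and Nfe2l3 did not. None of the 8 was called variable by the Poisson deviance with a highest CPM at least 2 times the lowest, a call made for 1.74% of 12434 genes tested, and none by the negative binomial deviance at edgeR's trended dispersion, a call made for 0.523%. At these shares, 0 calls among 8 genes, or in the lists below, say little. At an unadjusted p under 0.05, the negative binomial test passed 1 of 8, Maff, against 4.48% of all genes tested. With no ratio asked, the Poisson deviance passed 4 of 8 (Maf, Maff, Mafk and Nfe2l1) against 36.6% of all genes tested. Without the ratio this test passes smaller differences at higher counts. Here and below, such shares therefore also follow the level of the genes and do not measure spread alone.

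**Figure D2:**
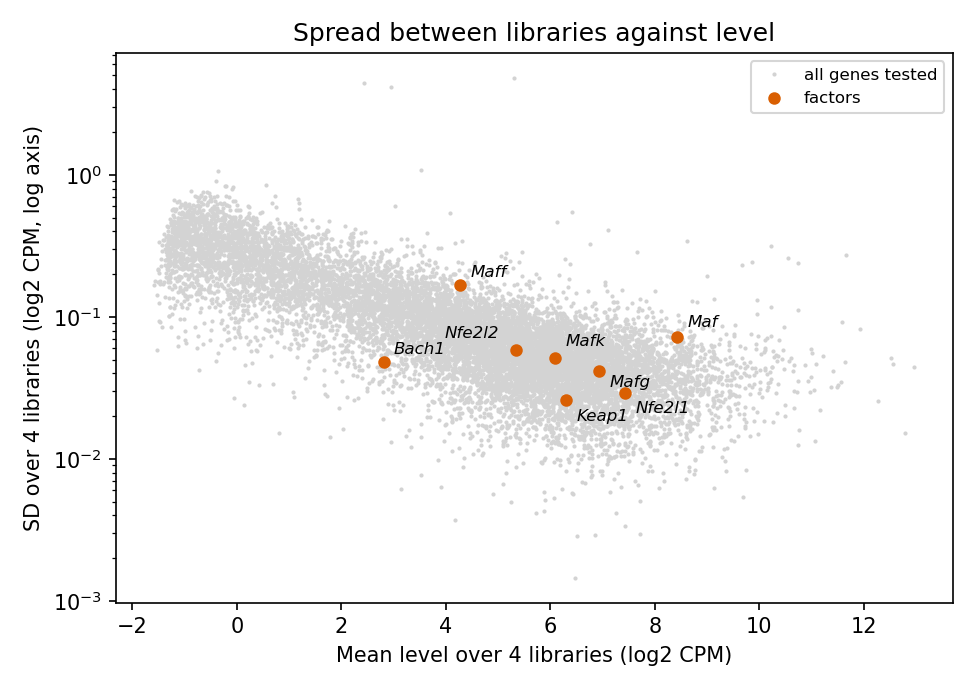
SD of log2 CPM over the 4 libraries (log axis) against mean log2 CPM, with 1 grey point for each of 12434 genes tested and the 8 factors that passed the filter in orange. Maff has the highest SD of the 8 at 0.17, and Keap1 and Nfe2l1 the lowest at 0.03.

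The median SD of log2 CPM was 0.0496 over the 8 genes and 0.0696 over all genes tested, whose levels reach far lower. Maff had an SD of 0.17, larger than 79.5% of genes tested, and its highest TPM was 1.35 times its lowest. Its adjusted p was 0.77 by the negative binomial deviance in edgeR, and those of the other 7 were 1.00 when rounded. Maff was above its mean log2 CPM by 0.20 in replicate 1 and below it, at -0.21, in replicate 4, with replicates 2 and 3 at -0.01 and 0.03.

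Maf deviated in the same libraries by less, at 0.05 in replicate 1 and -0.10 in replicate 4. Mafg went the other way in replicate 1 (-0.06) and was at 0.00 in replicate 4. Maff and Mafg thus deviated in opposite directions in replicate 1, and neither passed the negative binomial test after adjustment.

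**Figure D3:**
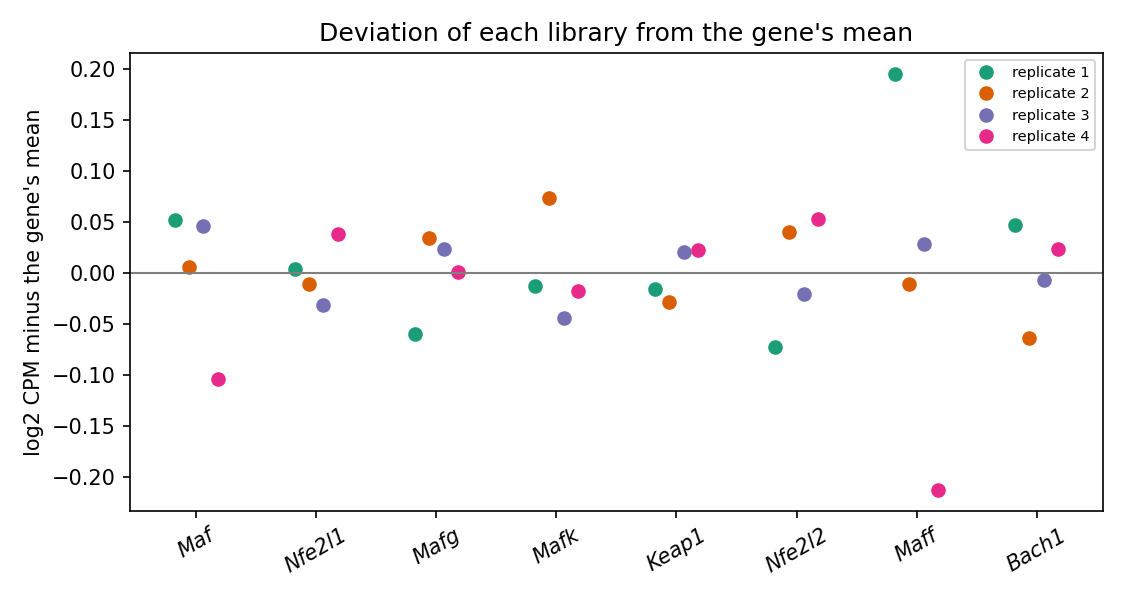
Log2 CPM of each library minus the mean of the gene over the 4 libraries, for the 8 factors that passed the filter on low counts, in order of level. Maff spans 0.20 to -0.21 from replicate 1 to replicate 4, Maf is at -0.10 in replicate 4, and the points of the other 6 lie between -0.07 and 0.07.

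Genes linked to Maf in T helper cells were then described from a list of 9, of which 8 were detected, against 47.0% of protein-coding genes. The list median was 41.5 TPM, beside 0.575 TPM over all protein-coding genes. Il2, the growth cytokine that c-MAF is known to restrain, was highest at 1407 ± 84.6 TPM (SD, n = 4), and Il21, a helper cytokine, was at 333 ± 19.1 and Il10, an anti-inflammatory cytokine, at 126 ± 12.2. The lowest were Il22, a cytokine acting on epithelia (11.5 ± 2.14, with 20.4% of its 100-base windows shared with Iltifb), and Il4. Il4, the Th2 cytokine in which c-MAF activity in T helper cells was first described, was at 0.191, 1.62, 1.31 and 0.567 TPM.

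The genes of the list were not all lowest in the same library. In replicate 4, where Maf was lowest, Il10 (112 TPM) and Cxcr5, a homing receptor of follicular helper cells (35.9), were also lowest, while Il21 (354) and the costimulator Icos (40.7) were highest. None of the 8 that were tested was called variable by the Poisson deviance with the ratio or by the negative binomial deviance, beside 1.74% and 0.523% of all genes tested. At unadjusted p under 0.05 the negative binomial deviance passed 0 of 8, against 4.48%, and the Poisson deviance with no ratio and an adjusted p under 0.05 passed 7 of 8, against 36.6% of all genes. The median SD of log2 CPM was 0.0912 over these 8 and 0.0696 over all genes tested.

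Target genes of NRF2 ran from very high to undetected. Of 21 on the list, 16 were detected, against 47.0% of protein-coding genes. The list median was 23.8 TPM, beside 0.575 TPM over all protein-coding genes and 31.3 TPM over the detected ones. Means of 8 genes exceeded 100 TPM. The highest were Txn1 (1684 ± 39.1 TPM, SD, n = 4), the reducing protein thioredoxin, Prdx1 (425 ± 12.7), a peroxidase, Tkt (283 ± 3.80), the pentose phosphate enzyme transketolase, and Taldo1 (212 ± 6.44), which acts beside it. The lowest were Gpx2, a gut glutathione peroxidase with 0 counts in every library, and Gsta3, a glutathione transferase with 2 counts each in replicates 2 and 4 and none in the others.

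Several genes often used as readouts of NRF2 were in the low part, and are named here after their values were seen. Nqo1, a quinone reductase, was at 4.38, 3.14, 3.13 and 3.58 TPM. Slc7a11, the cystine transporter, was at 0.0891 ± 0.0266 TPM (SD, n = 4) and Me1, malic enzyme with 17.2% of its windows shared with other genes, at 0.0436 ± 0.0198, both under 1 TPM in every library. By contrast Txnrd1, thioredoxin reductase, was at 200.03 ± 6.40 TPM, and Gclc, the catalytic subunit of the enzyme that starts glutathione synthesis, at 48.5 ± 1.32, which was 2.59 ± 0.0706 times its modifier subunit Gclm. The list therefore held both abundant and undetected genes within the same libraries. None of the 16 tested was called variable by either test, beside 1.74% and 0.523% of all genes tested, and 0 had an unadjusted p under 0.05 by the negative binomial deviance, beside 4.48%. With no ratio asked, the Poisson deviance passed 6 of 16, beside 36.6% of all genes tested.

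The letters of the antioxidant response element were in a promoter window of 9 of the 18 NRF2 targets with an entry, against 14% of all genes. Of these 9 genes, Gsta3 and Me1 were not detected. A match was not particular to this list: 3 of 5 genes linked to Maf in T helper cells with an entry held one. So did 4 of 25 proteasome genes and 1 of 6 for NRF1 release and turnover. None was found for 8 genes of NRF2 degradation, 3 repressed by BACH1 and 2 other MAF and CNC genes. The sites below were chosen to set 2 abundant targets beside 1 undetected one.

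Prdx1, chr4:116685456-116685485: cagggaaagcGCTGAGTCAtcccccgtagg

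Txnrd1, chr10:82859104-82859133: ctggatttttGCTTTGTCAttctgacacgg

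Me1, chr9:86695901-86695930: gatgccgccgTGACTCAGCgcttctcgcgg

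Read on opposite strands, the matched letters of Prdx1 and Me1 are the same 9-base sequence, while Prdx1 stood at 425 TPM and Me1 under 0.1 TPM in every library. In Prdx1 the match begins at base -133, in Txnrd1 at -92 and in Me1 at -6 from the start site. Nqo1 and Slc7a11, known for such elements, had no match in their windows, which says nothing of sites elsewhere.

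The machinery that degrades NRF2 was detected for all 10 genes of its list, against 47.0% of protein-coding genes, with a median of 128 TPM. Skp1a (325 ± 8.76 TPM, SD, n = 4) and Fbxw11 (204 ± 7.67), parts of the second NRF2 ligase, and Gsk3a (215 ± 6.38), a kinase that marks NRF2 for it, were highest, followed by Cul3 (155 ± 5.83), the scaffold that KEAP1 joins. Cul3 was at 2.78 ± 0.098 times the level of Keap1. The lowest were Dcaf11 (17.6 ± 0.881), the adaptor of another ligase, and Btrc (12.7 ± 0.642), the paralogue of Fbxw11. Sqstm1, the autophagy receptor that binds KEAP1, was at 96.6 ± 4.49, with 18.8% of its 100-base windows shared with the neighbouring gene Mrnip.

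**Figure D4:**
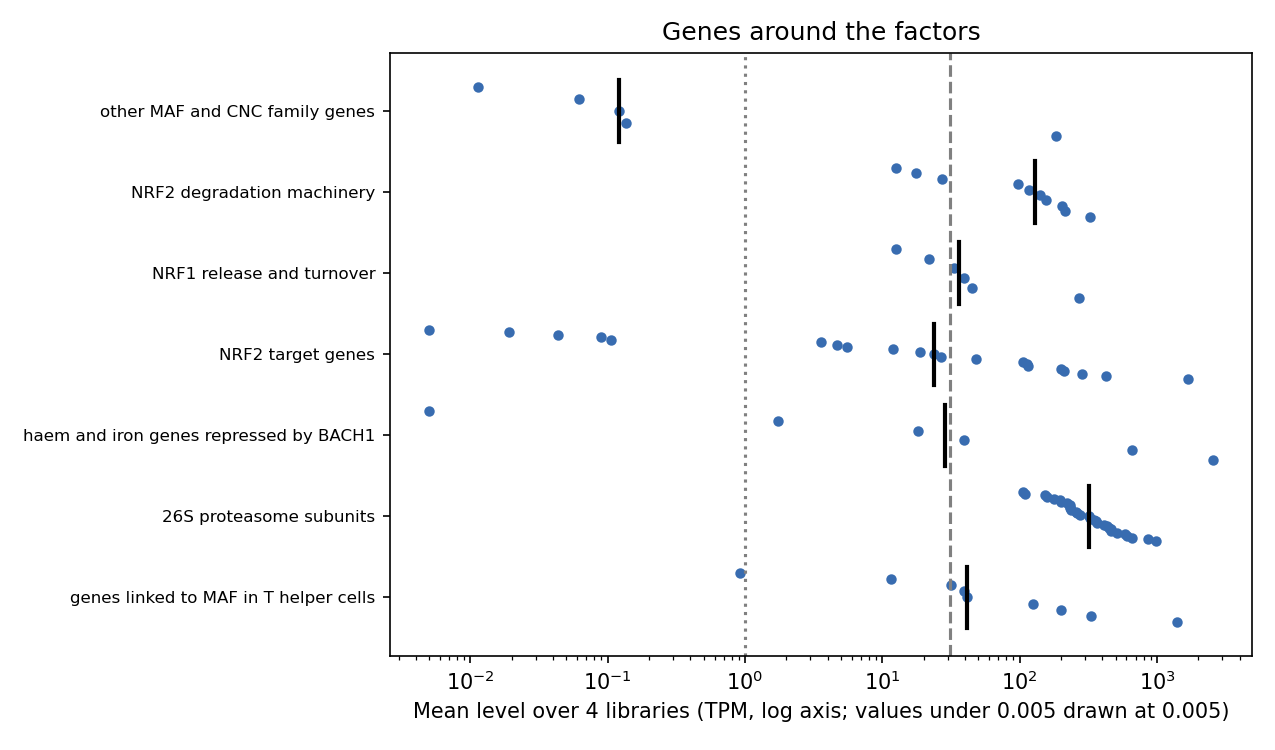
Mean TPM over the 4 libraries (log axis) of each gene of the 7 lists, with 1 point for each gene and a bar at the list median; the dotted line is 1 TPM and the dashed line 31.3 TPM, the median of detected protein-coding genes. All 31 proteasome genes of the list lie above 100 TPM, while NRF2 targets run from 0 to 1684 TPM.

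Genes that release NRF1 from the endoplasmic reticulum or destroy it were all 6 detected, against 47.0% of protein-coding genes. Their median was 36.4 TPM. Vcp, the segregase that pulls NRF1 out of the membrane, was at 270.4 ± 2.85 TPM (SD, n = 4), but 54.7% of its 100-base windows are shared with other genes, so its level is uncertain. Syvn1 (44.9 ± 1.48) and Sel1l (39.4 ± 1.11), parts of the ligase for membrane proteins, and Ddi2 (33.4 ± 1.28), the protease that cuts NRF1, followed; 17.5% of the windows of Ddi2 are shared with Rsc1a1. Fbxw7 (21.9 ± 0.588), a ligase adaptor, and Ngly1 (12.5 ± 0.576), the enzyme that removes glycans from NRF1, were lowest.

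NRF1 is known to activate genes of the 26S proteasome. The 31 Psma, Psmb, Psmc and Psmd genes listed for it were all detected, against 47.0% of protein-coding genes, at a median of 318 TPM. They ranged from 105 ± 3.2 TPM for Psmd11 and 110.2 ± 2.02 for Psma3 (20.6% of windows shared with Gm13835) to 993 ± 16.7 for Psma2, 862 ± 11.98 for Psma6, 654 ± 20.9 for Psmb1 and 605 ± 11.7 for Psmc5 (SD, n = 4). No subunit was called variable by either test, beside 1.74% and 0.523% of all genes tested, and 0 of 31 had an unadjusted p under 0.05 by the negative binomial deviance, beside 4.48%. Of the 31, 21 passed the Poisson deviance with no ratio, beside 36.6% of all. These genes have high counts, at which that test passes small differences. Their median SD of log2 CPM was 0.035, beside 0.0696 over all genes tested, whose levels reach far lower. At shares of 1.74% and 0.523% over all genes, 0 calls in a list of this size say little.

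Haem and iron genes that BACH1 represses were 5 of 6 detected, against 47.0% of protein-coding genes. Fth1, the ferritin heavy chain, was at 2572 ± 56.5 TPM (SD, n = 4) and Ftl1, the light chain, at 658 ± 9.37, but 78.6% of the 100-base windows of Ftl1 are shared with 6 other genes, so its count is uncertain. Slc48a1, a haem transporter, was at 39.4 ± 0.227 and Hmox1, haem oxygenase and the best known BACH1 target, at 17.4, 18.7, 17.4 and 19.5 TPM. Blvrb, a biliverdin reductase, was at 1.73 ± 0.471, and Slc40a1, the iron exporter, had 0 counts in all 4 libraries. Fth1 exceeded Hmox1 by 141 ± 10.5 times. Of the 5 tested, 0 were called variable by either test, beside 1.74% and 0.523% of all genes tested, 0 had an unadjusted p under 0.05 by the negative binomial deviance, beside 4.48%, and 3 passed the Poisson deviance with no ratio, beside 36.6%.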

How the data were processed

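The authors deposited whole-number fragment counts per gene with exon lengths in bases, made, per the file headers, with featureCounts 1.4.6-p4 on GENCODE M13 exons, with both ends mapped and the reverse-stranded setting. Fragments that map to several places or overlap 2 genes were not counted, since the command holds no option for them. The labels name mm10. No label or header states how the aligner was run. The assay label reads total RNA, and the linked library protocol names poly(A) selection.

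Symbols came from GENCODE M21 by gene ID without version (50376 of 50600 genes). TPM and CPM were computed here. Variation was tested with edgeR 4.0.16 in R 4.3.3 on 12434 genes (TMM factors 0.997 to 1.01): deviance against equal proportions with Poisson noise or at the trended dispersion, chi-square with 3 degrees of freedom, Benjamini-Hochberg adjustment over all genes. Log2 CPM used a prior count of 2 and the ratio one of 0.5. The tests were also run on counts simulated at the dispersions fitted to these data, which cannot show a misfit of that model. Promoters are from RefSeq (GRCm38.p6). Per list, the 4 highest and 2 lowest genes are named, except for results not reported here. The members and lists were chosen with earlier results of these data known. Alternatives were other detection thresholds, pseudocounts, lengths and filters, CPM, DESeq2 1.42.0, and each replicate left out.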

Additional observations from a re-analysis of the deposited data

Results flagged for a closer look

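In 3 genes, 1 library lay apart from the other 3 by more of the whole range than Dixon's 95% critical value for 4 samples allows. Of 91 genes of the family and its lists that were looked at, chance at 1 in 20 would give about 4.55. Cul1, a ligase scaffold, was at 138.5 TPM in replicate 4, against 140.8 to 140.9 in the others. Psmc2, a proteasome ATPase, was at 159 TPM in replicate 3, against 150.2 to 151 in the others. Sel1l was at 41 TPM in replicate 1, against 38.6 to 39 in the others. None of the 8 detected factors was among them, and Nfe2l3, with a mean under 1 TPM, was not looked at.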

How the results depend on the processing

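Among 66 recomputed counts (genes detected, pairs in 1 order, genes called variable), 65 stayed within 1.5 times their reported value under the alternatives listed. The exception was the Poisson deviance with no ratio asked, which called 4 of 8 factors in place of 0. That margin is wide for such counts, and lists detected in full could not rise. At a threshold of 5 TPM, detected factors fell from 8 to 7, NRF2 targets from 16 to 14 and haem and iron genes from 5 to 4. The smallest adjusted p of any factor by the negative binomial deviance lay between 0.77 (Maff, DESeq2 size factors) and 1.00 over 8 alternatives. The order of Mafk and Keap1 reversed with CPM in place of TPM, to a log2 ratio of -0.21. That of Nfe2l2 to Maff rose from 0.23 to 0.73 with the longest transcript and 1.07 with CPM, and the pairs in 1 order rose from 34 to 35 and 36, so the overlap of these neighbours depends on the length scaling. Leaving out each replicate in turn reversed no log2 ratio of neighbours in the order. No paired analysis was possible because the samples form 1 group. Depth limits Nfe2l3 and the genes near 0 counts.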
